A study of Bos taurus with 90 samples.

Results

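The jejunum is the middle stretch of the small intestine, and its microRNAs (miRNAs) were compared here between dairy cows fed corn stover, the stalks and leaves left after maize harvest, and cows fed the other forages of the study. The samples were chosen by 2 labels, jejunum epithelium as the tissue and the diet, which gave 18 of the 90 samples of the series. Small RNA was sequenced from 5 tissues of 18 mid-lactation Chinese Holstein cows slaughtered on 3 diets. Pieces of each tissue were frozen and ground to powder, so a jejunum sample is bulk tissue from 1 cow. The methods do not say whether other layers of the gut wall were removed. The 3 jejunum groups differed by the forage in the label, corn stover (n = 6), alfalfa hay (n = 6) and rice straw (n = 6), and the labels give no other treatment. The question was which of the 337 miRNAs listed for jejunum differed in corn stover against the 12 samples of the other forages, here called the reference samples. Levels are in CPM, the reads of a miRNA scaled to a total of 1000000 mapped miRNA reads in its library. A library held between 3987988 and 10383400 mapped miRNA reads, so 3 reads were worth between 0.289 and 0.752 CPM. In bulk tissue, fewer cells of a type and less RNA per cell cannot be told apart.

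A miRNA is cut from a hairpin in a longer primary transcript, loaded into an Argonaute protein, and used to find partly complementary messenger RNAs, which are then degraded or translated less. Both arms of a hairpin can yield a mature miRNA, named 5p and 3p, and neighbouring hairpins are often cut from a shared primary transcript, as miR-143 with miR-145 or the members of the miR-17-92 cluster. In the gut wall, miR-192, miR-194 and miR-215 are known from absorptive epithelium, the miR-200 family from epithelia in general, miR-143 and miR-145 from smooth muscle and other stromal cells, and miR-126 from endothelium. The level of a miRNA in a read library also depends on how well its ends ligate to adaptors, so levels were compared between samples and not between miRNAs.

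Corn stover libraries 1, 2 and 6 stood apart from the other 15 jejunum libraries before any test. MiRNAs that the jejunum files do not list took 281.4, 440.3 and 220.6 CPM in these 3 libraries, against 44.9 to 72.6 CPM in the other 15, and which miRNAs those are is not known from the files used here. The duodenum libraries of all 18 cows lay between 42.4 and 70.2 CPM. The largest principal component of the 18 jejunum libraries held 37.4% of the variance and placed all 6 corn stover libraries above 0 (8.6, 12.1, 3.3, 3.3, 1.3 and 9.6 for libraries 1 to 6) and the 12 reference libraries between -4.7 and -0.4. Nothing in the labels or the methods sets these 3 libraries apart, and why they differ was not tested. For the contrast with the reference samples, counts of calls are therefore given with all 6 corn stover libraries and again with libraries 3, 4 and 5 alone, and a named miRNA whose call was lost with these 3 is given with that value.

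**Figure D1:**
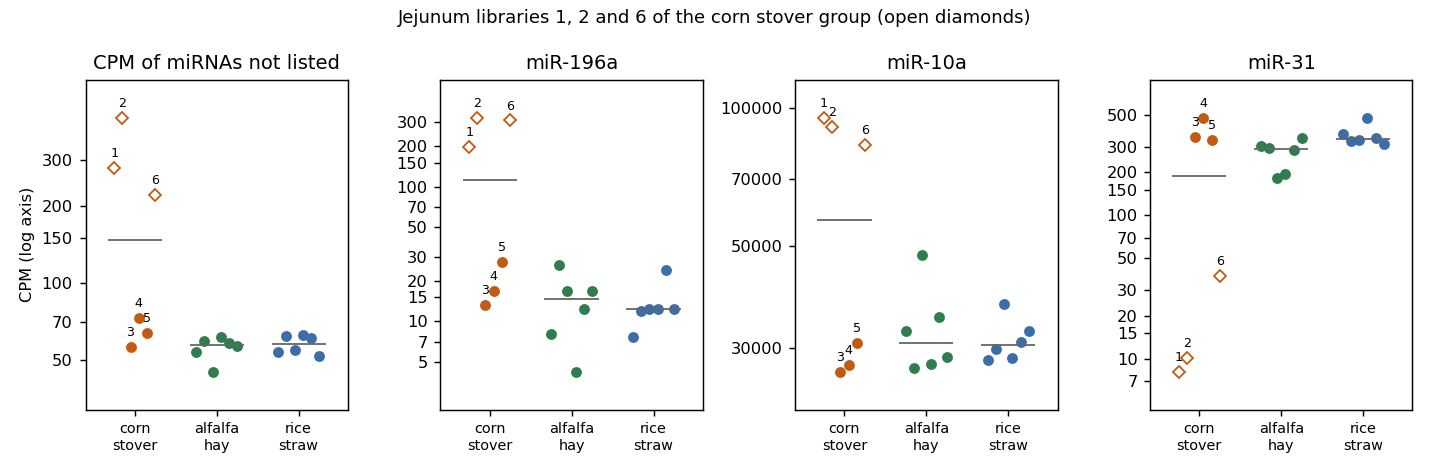
CPM on log axes in the 18 jejunum libraries, by forage, for the miRNAs not listed in the files and for miR-196a, miR-10a and miR-31. Each point is a library, lines are medians, and the numbers are corn stover libraries. The open diamonds (1, 2 and 6) lie apart from libraries 3, 4 and 5 in each panel.

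The jejunum of cows fed corn stover differed widely from that of the reference cows, with large rises of miR-92a and miR-423-3p and large falls of miR-1271, miR-99b and miR-100. Of 336 miRNAs tested with limma on log2(CPM + 1), 118 passed an adjusted p of 0.05, or 35.1%, of which 42 were higher in corn stover (12.5%) and 76 lower (22.6%). For 93 of the 118, all 6 corn stover libraries lay on the called side of the reference mean, which follows in part from their being called on these same values. Most differences were small, and the absolute log2 difference was at least 1 for 19 miRNAs (6 higher, 13 lower) and under 0.5 for 44. The split between higher and lower depended on the scaling. With trimmed-mean scaling the median log2 difference of all miRNAs moved from -0.18 to -0.04, and 66 miRNAs were higher and 46 lower. Leaving out 1 library gave 31 to 41 higher and 46 to 101 lower, and the count of lower miRNAs fell to 46 without corn stover library 6 and to 47 without library 2.

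Without corn stover libraries 1, 2 and 6, 41 of 337 miRNAs passed (12.2%), 21 higher and 20 lower. Of these, 39 had also passed with all 18 libraries and in the same direction, 20 higher and 19 lower. The other 79 of the 118 calls, 22 higher and 57 lower, were made with all 18 libraries and not with 3 corn stover libraries, a fit that also has fewer samples. The differences themselves moved too, the median log2 difference of all miRNAs from -0.18 to -0.06.

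**Figure D2:**
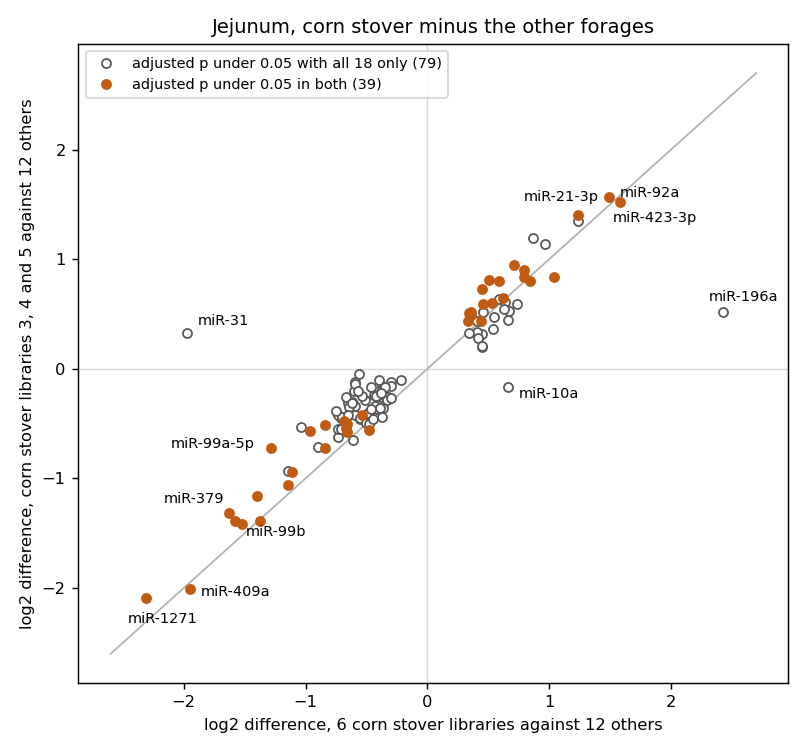
Each point is 1 of the 118 miRNAs that passed with all libraries, placed by its log2 difference with 6 corn stover libraries (x) and with corn stover libraries 3, 4 and 5 (y), and the diagonal marks equal values. Among the points away from the diagonal, miR-196a falls from 2.43 to 0.52, miR-10a from 0.66 to -0.17, and miR-31 goes from -1.97 to 0.33.

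The smallest adjusted p belonged to miR-92a, the terminal member of the miR-17-92 cluster and a miRNA of growing cells and of blood. Its level was lowest at 10300, median 11571 and highest at 14544 CPM in corn stover, against 3098, 4388 and 5327 CPM in the 12 reference samples. Every corn stover library was above every reference library, and the means differed 2.79-fold (log2 difference 1.49 ± 0.12, SE, adjusted p = 1.09e-08, limma). MiR-92a was the 24th most abundant jejunum miRNA, and leaving out any 1 of the 18 libraries kept its log2 difference between 1.42 and 1.52.

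Without overlap of the groups, 7 miRNAs were higher in corn stover (2.08% of those tested) and 13 lower (3.87%). Beside miR-92a, miR-423-3p ranged from 773 through a median of 953 to 1183 CPM in corn stover and from 242 through 324 to 464 CPM in the reference samples, a log2 difference of 1.58 ± 0.14 (SE). MiR-21-3p, the less used arm of the miR-21 hairpin, ranged from 190 to 364 CPM (median 221) in corn stover and from 78.7 to 136 CPM (median 99.9) in the reference samples, a log2 difference of 1.24 ± 0.16. MiR-345-3p lay between 44.3 and 58 CPM in corn stover and between 21.7 and 36.4 CPM in the reference samples. The other 3 were let-7d (628 to 873 against 420 to 624 CPM), miR-149-5p (19.5 to 24.6 against 9.46 to 18.6 CPM) and the low miR-2339 (at most 4.64 CPM in corn stover and at most 1.98 CPM in the reference samples). Of these 7, miR-149-5p did not pass with corn stover libraries 3, 4 and 5 (log2 difference 0.55, adjusted p = 0.0559).

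The largest fall was that of miR-1271, a relative of miR-96 that shares its seed, the bases that pair with a target. It measured 9.05, 7.22, 11.9, 9.44, 11.3 and 6.98 CPM in corn stover libraries 1 to 6 and 29.8 to 95 CPM (median 45.3) in the reference samples. Its reference mean was 5.61-fold that of corn stover (log2 difference -2.31 ± 0.20, SE, adjusted p = 2e-08, limma), and the 3 corn stover libraries that stood apart were not far from the other 3 here. MiR-96 itself fell by 1.37 on the log2 scale, from a reference range of 6.44 to 19.8 CPM to 3.1 to 5.53 CPM.

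Among the miR-99/100 family miR-99b, miR-100 and miR-99a-5p fell. These miRNAs share a seed, target the growth kinase mTOR and are each encoded beside a let-7 hairpin. MiR-99b ranged from 444 to 792 CPM (median 725) in corn stover and from 1451 to 3520 CPM (median 1906) in the reference samples, a log2 difference of -1.58 ± 0.17 (SE). MiR-100 ranged from 202 to 396 CPM (median 297) against 568 to 1525 CPM (median 806), a log2 difference of -1.52 ± 0.17. MiR-99a-5p ranged from 88.5 to 279 CPM (median 199) against 320 to 715 CPM (median 416), a log2 difference of -1.28 ± 0.21 that was -0.72 without the 3 libraries that stood apart. In all 3 the highest corn stover library was below the lowest reference library. The other arm of the miR-99a hairpin, miR-99a-3p, did not pass (-0.41, adjusted p = 0.0725, limma).

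Another 8 miRNAs were lower in every corn stover library than in any reference library. MiR-1, a muscle miRNA, measured 5.61 to 9.15 CPM against 11.3 to 27.2 CPM. MiR-126-5p, of endothelium, measured 5878 to 13802 CPM against 14934 to 23402 CPM. MiR-30a-5p measured 5750 to 9616 CPM against 10848 to 16473 CPM, and miR-425-3p 20.6 to 33.2 CPM against 45.6 to 74.6 CPM. MiR-379 and miR-409a, of the imprinted DLK1-DIO3 locus, measured 1.83 to 7.74 against 8.53 to 19.3 CPM and 0 to 0.31 against 1.73 to 8.53 CPM. In reads, miR-409a had 1, 2, 0, 2, 0 and 2 in the 6 corn stover libraries and 12 to 43 in the reference libraries, too few in corn stover for a fold. The remaining members were miR-29d (1.49 to 3.69 against 5.01 to 10.6 CPM) and miR-2285k (58.6 to 110 against 123 to 189 CPM). All 20 miRNAs whose groups did not overlap (5.95%) passed the test with all libraries, and 19 of them also without the 3 libraries that stood apart. The 20 were chosen on the values that both fits use, so these counts describe them and are no further test.

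**Figure D3:**
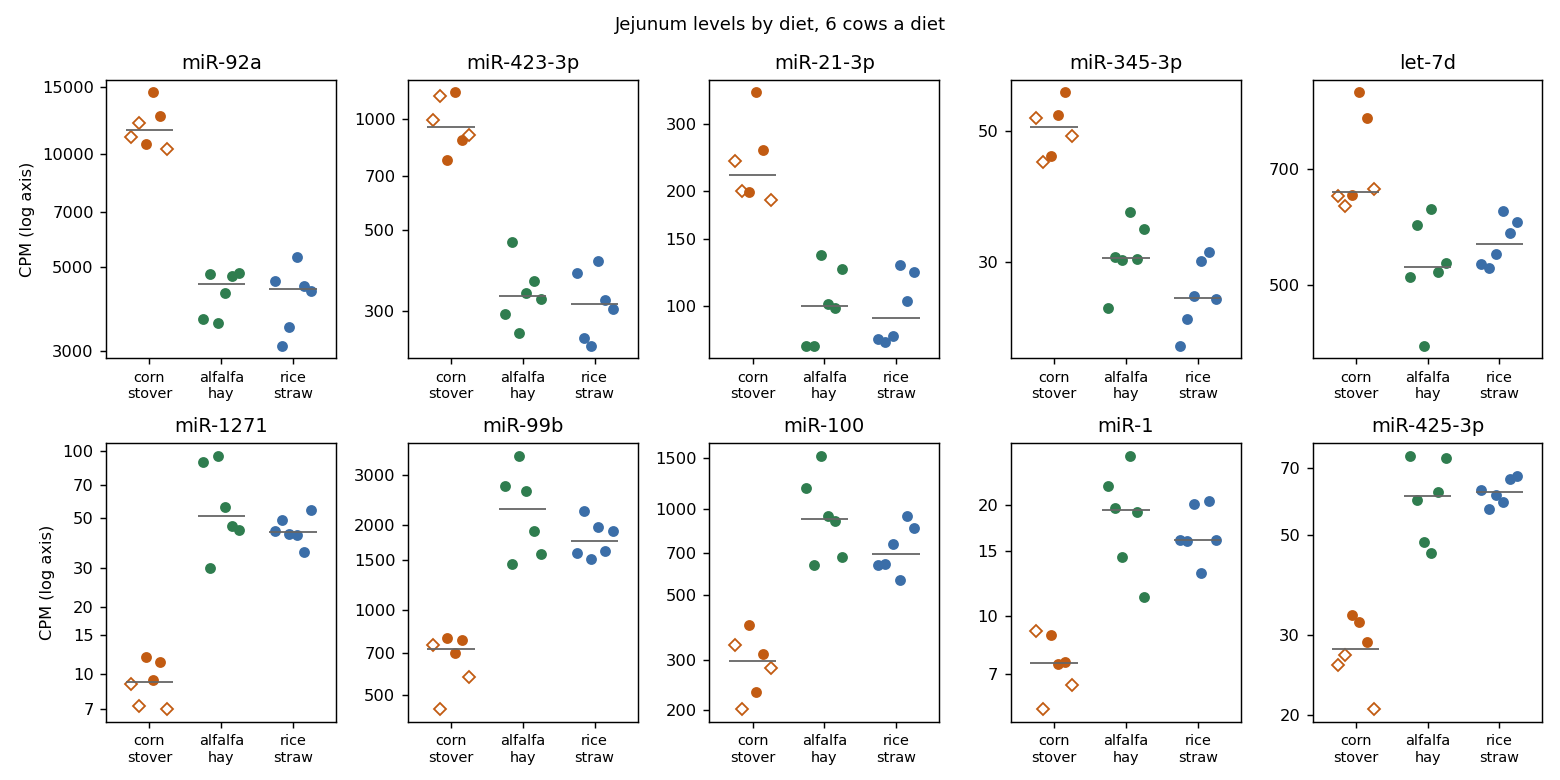
CPM of 10 miRNAs (log axes) in the 18 jejunum libraries, by forage. Each point is a library, lines are medians, and open diamonds are corn stover libraries 1, 2 and 6. The 6 corn stover libraries lie above all others for the 5 miRNAs of the upper row and below all others for the 5 of the lower row.

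A further group of differences rested on corn stover libraries 1, 2 and 6. MiR-196a and miR-10a are encoded inside the HOX clusters, the genes that set position along the body and the gut, and miR-31 is a miRNA of gut epithelium and of wounds. MiR-196a measured 197, 324, 13.2, 16.7, 27.7 and 310 CPM in corn stover libraries 1 to 6 and 4.21 to 26.3 CPM in the reference samples. MiR-10a measured 95217, 91040, 26635, 27563, 30764 and 83090 CPM against 27082 to 47729 CPM. MiR-31 measured 8.13, 10.1, 354, 478, 337 and 37.7 CPM against 183 to 476 CPM. Libraries 3, 4 and 5 lay within or next to the reference range in each case.

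With all libraries, miR-196a was higher (log2 difference 2.43 ± 0.59, SE, adjusted p = 0.00346, limma), miR-10a was higher (0.66 ± 0.25, adjusted p = 0.046) and miR-31 was lower (-1.97 ± 0.66, adjusted p = 0.0286). Without the 3 libraries none of the 3 passed, with log2 differences of 0.52, -0.17 and 0.33, and the call of miR-31 was lost without any 1 of them. The duodenum of all 18 cows held 0.384 to 12.5 CPM of miR-196a, 3468 to 26674 CPM of miR-10a and 104 to 484 CPM of miR-31. MiR-10b, encoded in another HOX cluster, did not pass (log2 difference 0.07) and reached 75615 CPM in a reference library against 69678 CPM at most in corn stover. It was split in the same way within corn stover, with 69678, 54610, 18453, 16763, 21223 and 59430 CPM in libraries 1 to 6. The value of 0.07 averages over this split.

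Several other rises and falls were moderate. Among the 12 miRNAs with the largest rise, miR-2419-5p (log2 difference 0.87), miR-1307 (0.84), miR-2487 (0.74), miR-1249 (0.67), miR-210 (0.66) and miR-1343-3p (0.64) overlapped the reference samples in at least 1 library. MiR-210, the miRNA induced by low oxygen, ranged from 34.9 to 74.9 CPM in corn stover against 24.2 to 44.2 CPM. Of these 6, only miR-1307 also passed without the 3 libraries (0.80), and miR-2487 failed the threshold in 12 of the 18 fits that left out 1 library and miR-2419-5p in 7. Among the 12 largest falls, miR-146a and miR-146b, which damp innate immune signalling, fell by 1.04 and 1.14 on the log2 scale, and miR-24-3p fell by 0.84. MiR-146a ranged from 1163 to 4109 CPM in corn stover and from 3390 to 6167 CPM in the reference samples. Neither miR-146a nor miR-146b passed without the 3 libraries (-0.53 and -0.93), while miR-24-3p did (-0.72).

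Ratios of miRNAs within a library do not depend on how the library was scaled. Neighbours were taken as hairpins within 10 kb of each other in the RefSeq gene table of the ARS-UCD2.0 assembly, in which 334 of the 336 names were found, and pairs were limited to miRNAs with a mean of at least 10 CPM. Of 90 such pairs, 24 (26.7%) had ratios that did not overlap between corn stover and the reference samples, and of 15 pairs of arms of a hairpin 5 did (33.3%). These are counts of pairs that share members, 7 of the 24 being miR-92a with other members of its clusters, and no test was made on them. The share among pairs that are neither neighbours nor arms was not computed. The counts therefore do not show that neighbours or arms part more often than other pairs. Each ratio is given with the miRNA of the higher log2 difference first.

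The ratio of miR-92a to miR-17-5p, which come from a shared transcript, was 35.9 to 49.1 in corn stover and 9.31 to 17 in the reference samples. Within the list of 15 miRNAs of the miR-17-92 and related clusters 3 were higher (miR-92a, miR-92b and miR-17-3p) and 1 lower (miR-20a), against 12.5% higher and 22.6% lower of all miRNAs tested, and the median log2 difference was -0.20 against -0.18 for all. Without the 3 libraries that stood apart 1 was higher, miR-92a, and 0 lower, against 21 higher and 20 lower of 337 miRNAs. In that fit miR-92b was at 0.33, miR-17-3p at 0.44 and miR-20a at -0.26. The call of miR-20a was also lost with trimmed-mean scaling (-0.22). A miRNA named miR-92a has 2 loci in the RefSeq table, and the values do not say which of them gave the reads. MiR-92b has 1 locus with no tested miRNA within 10 kb, so it lies outside the clusters of this list.

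Ratios of other pairs of neighbours differed too. The ratio of miR-143 to miR-145 was 118 to 164 in corn stover and 39.6 to 93.9 in the reference samples, since miR-143 was higher (log2 difference 0.35, adjusted p = 0.042, limma) and miR-145 lower (-0.66, adjusted p = 0.00151). The ratio of the muscle miRNAs miR-133a to miR-1 was 24.6 to 49.2 against 11.8 to 21. Let-7a-5p to miR-100 was 37.1 to 64.2 against 5.44 to 21.9, let-7e to miR-99b was 0.655 to 0.763 against 0.0798 to 0.279, and let-7c to miR-99a-5p was 2.13 to 3.18 against 0.604 to 1.66. In each of these pairs all 6 corn stover libraries, the 3 that stood apart included, were above all 12 others. Let-7a-5p has 3 loci, not all of them beside miR-100, and miR-133a and miR-1 have 2 loci each. The values do not say which loci gave the reads, so these ratios can mix reads of several hairpins.

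Arms of a hairpin also parted. MiR-21-3p to miR-21-5p was 0.00652 to 0.00931 in corn stover and 0.00184 to 0.00498 in the reference samples, miR-21-5p being lower in corn stover (log2 difference -0.33, adjusted p = 0.0243, limma). The call of miR-21-5p was lost without the 3 libraries that stood apart (-0.26, adjusted p = 0.231) and with trimmed-mean scaling (-0.17). MiR-423-3p to miR-423-5p was 1.64 to 2.26 against 0.787 to 1.18, although both arms were higher in corn stover (1.58 and 0.53). MiR-425-5p to miR-425-3p was 20.2 to 32.7 against 11.2 to 18.8, with a fall of the 3p arm (-1.11) while the 5p arm did not pass (-0.19). The other arm pairs without overlap were those of miR-22 and miR-345.

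**Figure D4:**
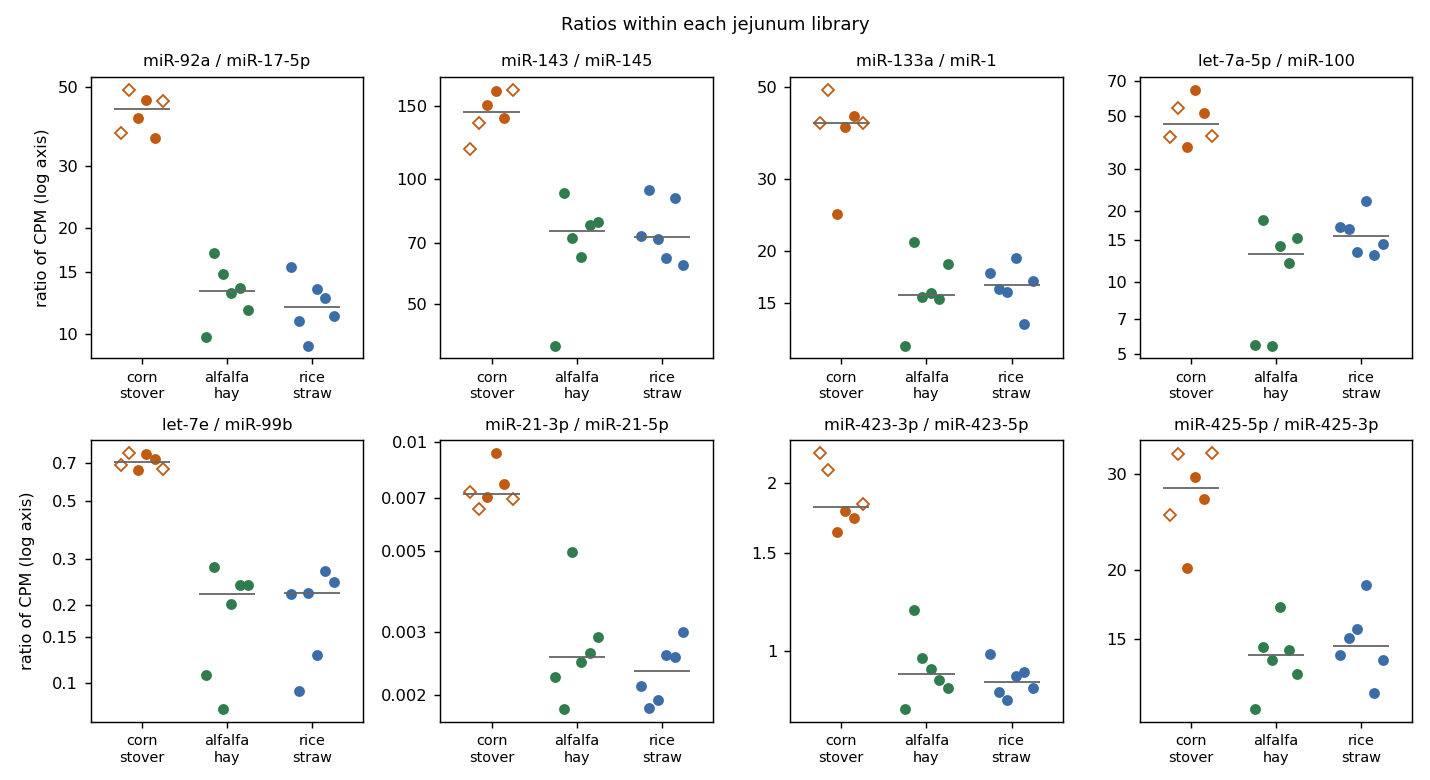
Ratio of the CPM of a pair of miRNAs within each of the 18 jejunum libraries (log axes), by forage, for 5 pairs of neighbouring hairpins and 3 pairs of arms of a hairpin. Each point is a library, lines are medians, and open diamonds are corn stover libraries 1, 2 and 6. In all 8 panels the 6 corn stover libraries lie above the 12 reference libraries. The pairs shown are among those without overlap, and each has the miRNA of the higher log2 difference first. Their position therefore follows from this choice.

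The markers of intestinal epithelium were abundant in all 18 libraries, and miR-143 of smooth muscle and stroma was the most abundant miRNA of all by its mean, in samples labelled as epithelium. The summed level of miR-192, miR-194 and miR-215 was 157044 to 305331 CPM in corn stover and 144396 to 298094 CPM in the reference samples, and 0 of the 3 passed (log2 differences -0.29, 0.31 and 0.50). Of the 5 miR-200 family members 1 passed, miR-429 (0.45, lost in 14 of the 18 fits that left out 1 library), and the sum was 4714 to 10702 CPM against 6343 to 9966 CPM. Without the 3 libraries miR-429 did not pass and miR-141 was lower (-0.62).

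Markers of the other cells of the gut wall moved unevenly. The endothelial miR-126 was lower in both arms (-0.62 for 3p and -0.96 for 5p), and their sum was 8000 to 17708 CPM in corn stover against 18498 to 29441 CPM. With libraries 1, 2 and 6 left out the 5p arm passed (-0.57) and the 3p arm did not (-0.30, adjusted p = 0.231, limma). Among 8 immune cell miRNAs 4 were lower, namely miR-142-5p (-0.37), miR-146a, miR-146b and miR-342 (-0.41), against 22.6% lower of all miRNAs tested, and the median of the list was -0.32. The other 4 did not pass, with -0.23 for miR-142-3p, -0.27 for miR-155, 0.07 for miR-150 and 0.01 for miR-223. Of the 8, 0 passed without the 3 libraries, against 12.2% of all miRNAs, with a median of -0.15, miR-142-5p at -0.16 and miR-342 at -0.25. The calls of miR-142-5p (-0.21) and miR-342 (-0.25) were also lost with trimmed-mean scaling. Smooth muscle was represented by miR-143 and miR-145, which moved in opposite directions. Of 4 striated muscle miRNAs 1 was lower, miR-1, a share close to the 22.6% of all miRNAs, and miR-133a did not pass (0.01). The 5 mesenchymal miRNAs of the miR-199 and miR-214 group did not pass (-0.20 to -0.02).

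Red cell miRNAs did not pass, with log2 differences of 0.28 for miR-451, 0.40 for miR-144 and 0.03 for miR-486. Corn stover library 4 held 559 CPM of miR-451, against 54 to 160 CPM in the other 5, and it also had the highest level of miR-92a, 14544 CPM. MiR-92a is found in red cells too, and the other 5 corn stover libraries held 10300 to 12583 CPM of it with miR-451 at levels inside the reference range of 45.6 to 172 CPM. Of 8 miRNAs of enteroendocrine and nerve cells, miR-375 was higher (0.45) and miR-7 lower (-0.75), both with all libraries and neither without the 3, and the call of miR-375 was lost without any 1 of corn stover libraries 1, 2 and 6. In this list miR-124a and miR-124b hold identical values and are 1 measurement. The part of any of these cells in the differences of other miRNAs was not tested.

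Several families showed calls in 1 direction, to be read against the 12.5% higher and 22.6% lower of all miRNAs. Counts without the 3 libraries that stood apart are to be read against 21 higher and 20 lower of 337 miRNAs. In the list of the miR-99/100 and miR-125 families 5 of 6 were lower and 4 were without the 3 libraries, with a median log2 difference of -0.98 against -0.18 for all, and miR-125a and miR-125b fell by 0.68 and 0.55. MiR-125b did not pass without the 3 libraries (-0.46, adjusted p = 0.053, limma). In the list of miR-183, miR-96, miR-182 and miR-1271 3 of 4 were lower and miR-182 did not pass (0.15). Of these 4, 2 were lower without the 3 libraries and miR-183 did not pass (-0.62). In the miR-30 family 4 of 7 were lower, in the miR-29 family 2 of 4, and among the ruminant miR-2284 and miR-2285 families 10 of 21, with a median of -0.40. Without the 3 libraries 1 of the miR-30 family, 1 of the miR-29 family and 2 of the 21 were lower. The imprinted DLK1-DIO3 cluster had 6 of 30 lower and 0 higher, a share close to that of all miRNAs, and 2 lower without the 3 libraries.

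In the let-7 family 2 of 10 were higher, let-7a-5p (0.34) and let-7d (0.36), and the median was 0.10. Without the 3 libraries 2 were higher as well, against 21 higher and 20 lower of all 337 miRNAs. Of 9 miRNAs in the list of the X-linked miR-362 to miR-660 cluster 3 were higher, among them miR-532 (0.59) and miR-652 (0.54), and 2 lower. MiR-652 had no tested miRNA within 10 kb, so it is in the list but lies outside the cluster. Of the 9, 2 were higher and 0 lower without the 3 libraries, and miR-652 did not pass (0.36). The lists of the miR-181, miR-34, miR-378, miR-130 and miR-103 families had 0 calls. The authors' mapping let a read count for several precursors, so levels of near-identical members of a family are uncertain.

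Among the 10 most abundant miRNAs, 5 passed, against 35.1% of all miRNAs tested. MiR-143, the most abundant by its mean over the 18 libraries, had a mean of 246215 ± 39023 CPM (SD, n = 6) in corn stover, 197852 ± 38862 CPM in alfalfa hay and 188501 ± 27810 CPM in rice straw. Its call was lost in 12 of the 18 fits that left out 1 library, and that of miR-10a in 14. MiR-26a was lower (56208 ± 11206 CPM against 72870 ± 6677 and 77074 ± 6525 CPM), with its call lost without the 3 libraries (log2 difference -0.24, adjusted p = 0.153, limma) and with trimmed-mean scaling (-0.28, adjusted p = 0.0602, limma). Also lower were miR-21-5p, whose call was lost without corn stover library 3 or without library 6, and miR-142-5p, whose call was lost in 7 of the 18 fits, and miR-10a was higher as described. MiR-192, miR-10b, miR-27b, miR-148a and miR-215 did not pass (log2 differences between -0.29 and 0.50).

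Corn stover was then set against each of the other forages alone. These comparisons share the corn stover samples, so they are not independent of each other. Corn stover against alfalfa hay gave 74 calls of 336 (22%), 27 higher (8.04%) and 47 lower (14%), and corn stover against rice straw gave 96 (28.6%), 31 higher (9.23%) and 65 lower (19.3%). MiR-92a differed by 1.46 from alfalfa hay and by 1.51 from rice straw on the log2 scale, miR-1271 by -2.47 and -2.15, miR-99b by -1.73 and -1.44, and miR-423-3p by 1.53 and 1.63. MiR-31 passed against rice straw (-2.21, adjusted p = 0.0365, limma) and not against alfalfa hay (-1.74, adjusted p = 0.0997). The difference between these 2 values is the contrast of rice straw against alfalfa hay, which did not pass for miR-31. Rice straw against alfalfa hay gave 0 calls with limma (0%), with 18 miRNAs under an unadjusted p of 0.05 and a smallest adjusted p of 0.493.

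The same contrast was then set beside that of the duodenum, the stretch of intestine just before the jejunum, in the same cows. In the duodenum 0 of 331 miRNAs passed with limma (0%), with 24 under an unadjusted p of 0.05. The difference between the jejunum and duodenum contrasts was tested itself, in a fit without a block for the cow. It passed for 71 of 331 miRNAs (21.5%), 30 with the higher (9.06%) and 41 with the lower (12.4%) value in jejunum. Of the 117 miRNAs called in jejunum and listed in duodenum, 63 were among them. Without the 3 jejunum libraries that stood apart, 38 of 331 passed (11.5%), 20 with the higher and 18 with the lower value. Trimmed-mean scaling turned the split to 51 higher and 40 lower, and upper-quartile scaling gave 109 calls, 40 higher and 69 lower.

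MiR-92a had a log2 difference of -0.28 ± 0.11 (SE) in duodenum, which set it 1.77 ± 0.16 apart from jejunum (adjusted p = 8.61e-11, limma). MiR-1271 had 0.09 in duodenum and differed by -2.41 between the tissues, and miR-423-3p had -0.33 and differed by 1.91. The differences of miR-99b (-1.43), miR-100 (-1.22) and miR-99a-5p (-1.42) from duodenum also passed. Of the 24 miRNAs with the largest called rises and falls, the difference passed for 22 and not for miR-10a or miR-2419-5p. These 24 were chosen on the jejunum values that enter this difference, so their count is a description, and over all miRNAs it was 71 of 331. Without the 3 libraries it passed for 14 of the 22 and not for the other 8, miR-196a, miR-2487, miR-1249, miR-210, miR-1343-3p, miR-31, miR-1 and miR-126-5p. For miR-146a and miR-146b the duodenum values were 0.29 and 0.53, opposite in sign to those of jejunum.

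**Figure D5:**
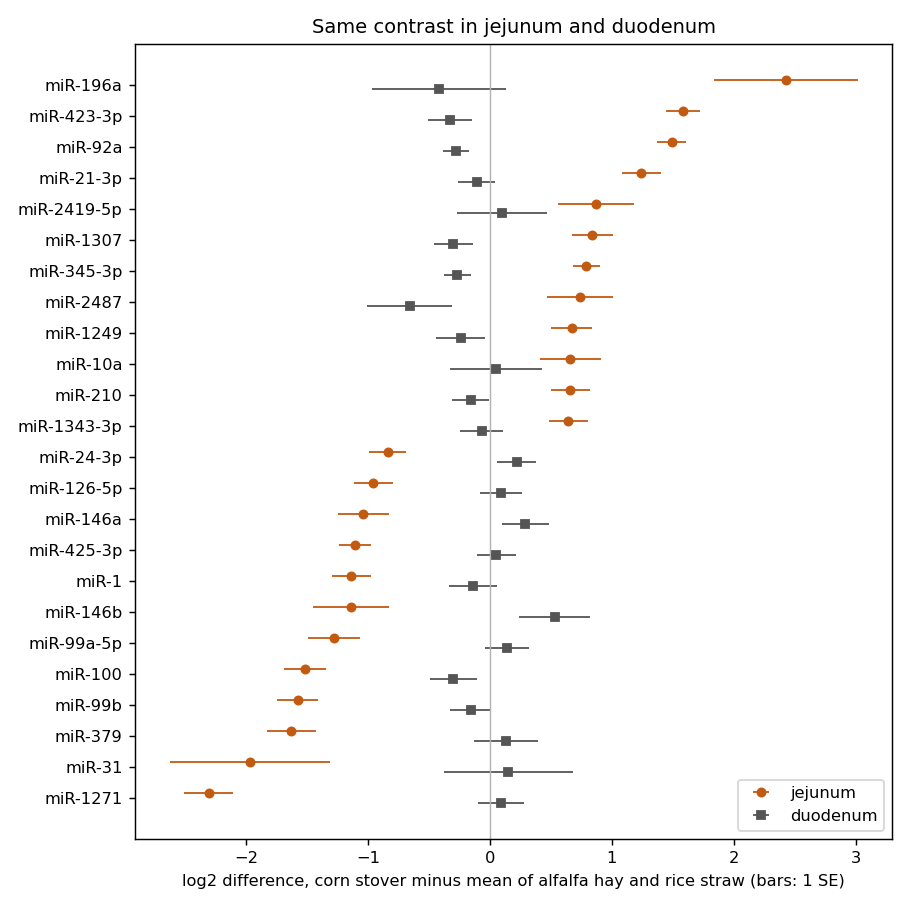
Log2 difference of corn stover minus the mean of alfalfa hay and rice straw in jejunum (circles) and duodenum (squares) for the 24 miRNAs with the largest called rises and falls in jejunum, with bars of 1 SE. The miRNAs were chosen for their jejunum values, which run from -2.31 to 2.43, and their duodenum values run from -0.66 to 0.53.

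Against the rumen epithelium of the same cows, 26 of 313 differences passed (8.31%), 8 with the higher (2.56%) and 18 with the lower (5.75%) value in jejunum, and 2 passed without the 3 libraries that stood apart (0.639%). Trimmed-mean scaling turned this split to 18 higher and 10 lower. The rumen contrast itself had 0 calls of 313 with limma and 31 under an unadjusted p of 0.05. MiR-423-3p had a log2 difference of 0.24 in rumen and differed from jejunum by 1.34, and miR-92a had 0.39 and differed by 1.10. MiR-1271 and miR-100 had rumen values of -1.33 and -1.13 that did not pass, and their differences from jejunum (-0.98 and -0.39) did not pass either.

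Corn stover libraries held 7763843 ± 1472758 mapped reads (SD, n = 6) and reference libraries 7065392 ± 1807522 (SD, n = 12), with p = 0.424 in an exact two-sided permutation test of the means. The number of miRNAs above 1 CPM was 322 ± 5.65 (SD, n = 6) in corn stover and 328 ± 3.7 (SD, n = 12) in the reference samples (p = 0.0248, exact permutation test). It was 326 ± 6.24 (SD, n = 3) without the 3 libraries that stood apart (p = 0.538, exact permutation test). The 10 most abundant miRNAs took 71.9% ± 2.86 (SD, n = 6) of the reads in corn stover and 69.6% ± 1.86 (SD, n = 12) in the reference samples (p = 0.0562, exact permutation test). Adjusted over these 3 exact permutation tests by Benjamini-Hochberg, the p-values were 0.424, 0.0745 and 0.0844.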

How the data were processed

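The authors filtered HiSeq reads (CASAVA 1.8 per the labels), mapped reads over 15 nt to miRBase precursors with sRNAbench and deposited CPM, a miRNA's share of all reads mapped to annotated miRNAs, scaled to a total of 1000000. Groups came from the diet and tissue labels. All values were whole multiples of 1 step per library (tolerance 0.02 reads), which gave the mapped totals. The study describes these values as raw counts, but they are not whole numbers and were read as CPM. The genome build is not given in the sources used here.

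From the deposited CPM, log2(CPM + 1) was fitted with limma 3.58.1 in R 4.3.3 (3 diet means, eBayes with trend, Benjamini-Hochberg adjustment, threshold 0.05) for miRNAs above 1 CPM in more than 50% of samples. The jejunum and duodenum (or rumen) contrasts were compared in fits of 36 samples, with no block for the cow except as an alternative. Tables were handled in Python 3.11.15 and pandas 2.3.3. On simulated data for corn stover in jejunum (336 miRNAs) the fit recovered 26 of 30 log2 changes of 1 and 13 of 30 of 0.5, with 1 false call among 276. The simulation took its spread from the reference libraries and drew each miRNA independently. It held no set like the 3 corn stover libraries that stood apart, so these rates do not cover that split. The CPM worth of 3 reads covers counting error only.

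Named miRNAs are the 12 largest called rises and falls with a mean of at least 10 CPM, the 10 most abundant, and members of lists. Others were named after their values were seen, among them the low miR-409a and those in ratios. The comparison, members and lists were chosen with earlier results of these data known. Alternatives covered pseudocount, filter, scaling, replicate block and left-out libraries. Same-numbered jejunum samples of different diets did not deviate together (2 of 18 correlations over 0.1). Same-numbered jejunum and duodenum samples of a diet come from 1 cow if the title numbers mark cows, which the labels do not state (median correlation 0.24).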

Additional observations from a re-analysis of the deposited data

Results flagged for a closer look

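The corn stover difference in jejunum differed from that in duodenum for 71 miRNAs and from that in rumen for 26, by a test of the difference itself in 1 fit of both tissues. Among the miRNAs with the largest rises in jejunum, the log2 difference in jejunum exceeded that in duodenum by 2.85 for miR-196a, 1.91 for miR-423-3p, 1.77 for miR-92a, 1.40 for miR-2487, 1.34 for miR-21-3p, 1.14 for miR-1307, 1.06 for miR-345-3p, 0.91 for miR-1249, 0.82 for miR-210 and 0.71 for miR-1343-3p. Among those with the largest falls it was -2.41 for miR-1271, -2.12 for miR-31, -1.76 for miR-379, -1.67 for miR-146b, -1.43 for miR-99b, -1.42 for miR-99a-5p, -1.33 for miR-146a, -1.22 for miR-100, -1.16 for miR-425-3p, -1.06 for miR-24-3p, -1.04 for miR-126-5p and -1.0 for miR-1. Without the 3 corn stover libraries that stood apart, the test of this difference passed for 14 of these 22, among them miR-92a (1.85), miR-423-3p (1.85) and miR-1271 (-2.19). It did not pass for the other 8, miR-2487 (1.24), miR-196a (0.94), miR-1249 (0.77), miR-1343-3p (0.68), miR-210 (0.60), miR-31 (0.19), miR-126-5p (-0.66) and miR-1 (-0.92).

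MiRNAs not listed in the files took 281.4, 440.3 and 220.6 CPM of corn stover libraries 1, 2 and 6, above the 44.9 to 62.6 CPM of the 12 reference libraries.

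A library far from the others of its diet was found in 20 of 234 groups of 6, where chance would give about 1 in 20 of independent groups. These groups share libraries, and some miRNAs were named after their values were seen, so the count is no test against chance. In corn stover, library 4 had the highest miR-451 (559 CPM), miR-144 (43 CPM) and miR-486 (1428 CPM), library 3 the highest miR-146b (557 CPM) and miR-7 (52 CPM), and library 2 the highest miR-200c (864 CPM) and the lowest miR-125b (605 CPM).

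In rice straw, library 5 had the highest miR-196a (23.9 CPM) and miR-10b (64189 CPM) and the lowest miR-142-5p (16733 CPM), library 4 the highest miR-31 (476 CPM), library 2 the highest miR-146b (1328 CPM) and library 6 the highest miR-126-3p (6039 CPM). In alfalfa hay, library 3 had the lowest miR-1249 (5.02 CPM) and miR-142-5p (15660 CPM) and miR-423-5p (270 CPM) and the highest miR-409a (8.53 CPM), library 1 the highest miR-2285k (189 CPM), library 5 the highest miR-2487 (23 CPM) and library 6 the highest miR-429 (1145 CPM).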

How the results depend on the processing

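Pseudocounts of 0.1 and 5 CPM, no filter, a minimum mean of 10 CPM, 2 groups of 6 and 12, and log2 of the implied reads (this last chosen after seeing the data) kept the count of the corn stover contrast within 102 to 122. Leaving out 1 library gave 81 to 142 calls for that contrast, 61 to 94 against alfalfa hay, 71 to 119 against rice straw and 0 to 0 for rice straw against alfalfa hay. The replicate block, which the check of title numbers did not support within jejunum, gave 102 calls (38 higher, 64 lower). It gave 100 for the difference from duodenum and 32 for that from rumen, where the block was the cow (within-cow correlation 0.167 and 0.0426).

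Scaling mattered for the split and for miRNAs near 0. Upper-quartile scaling gave 54 higher and 71 lower, and 109 miRNAs that differed from duodenum, while trimmed-mean scaling gave 51 higher and 40 lower there, 18 higher and 10 lower against rumen, and 1 call for rice straw against alfalfa hay. Trimmed-mean scaling turned the sign of miR-27b (0.06), miR-148a (0.08), miR-200a (0.05), miR-200b (0.00), miR-200c (0.02) and let-7c (0.07), none of which passed with either scaling. The calls of miR-26a (-0.28), miR-21-5p (-0.17), miR-142-5p (-0.21), miR-20a (-0.22) and miR-342 (-0.25) were lost with it. Upper-quartile scaling lost the call of miR-10a (0.72) and made one of miR-142-3p (-0.17), and the replicate block lost those of miR-10a, miR-2487, miR-143 and miR-142-5p.

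Leaving out corn stover libraries 1, 2 and 6 was chosen after seeing the data. It gave 41 calls for the corn stover contrast, 37 against alfalfa hay, 35 against rice straw, 38 for the difference from duodenum and 2 for that from rumen. It turned the sign of miR-10a (-0.17), miR-31 (0.33), miR-10b (-0.79), miR-148a (0.37), miR-215 (-0.03), miR-223 (-0.13), miR-133a (-0.05) and let-7c (0.35). It turned the difference in mapped reads to -544234, that in miRNAs above 1 CPM to -2.08 and that in the top 10 share to -0.079 percentage points. The summed CPM of listed miRNAs, tried in place of mapped reads, was 133 lower in corn stover (-133, p = 0.00108, exact permutation test), which restates the unlisted CPM of those 3 libraries. The causes of these shifts were not tested.

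The planned count tests were not run, and log2 of the implied reads was fitted with limma in their place. With 6 libraries a diet, changes of 0.5 on the log2 scale were often missed in simulated data.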
